A study of Mus musculus with 4 samples.

Results

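Angiogenic factors and vascular endothelial growth factor (VEGF) receptors were followed across 4 cultures of 3T3-L1 cells, a mouse fibroblast line used as a model of fat cell formation. The group holds 10 genes: the ligands Vegfa, Vegfb, Vegfc and Pgf, the receptors Kdr and Flt1, the coreceptors Nrp1 and Nrp2, and the secreted factors Angpt1 and Sema3c. All probe sets annotated to these names were taken, 24 of the 45101 on the array, so that all 10 were found among the 18194 named genes. The genes were chosen by function, with log2 differences of these same arrays already known, so their values are a description and carry no test. Each culture was measured on 1 array. The control siRNA culture received siGL3, the aof2 siRNA culture an siRNA against Aof2 (now Kdm1a, encoding the histone demethylase LSD1), and the rfk siRNA culture an siRNA against Rfk (riboflavin kinase). These cells were induced to form fat 24 h after transfection with insulin, dexamethasone and 3-isobutyl-1-methylxanthine, and collected 24 h later. The tranylcypromine culture had this inhibitor of LSD1 and monoamine oxidases in its induction medium, and its labels mention no siRNA, so the drug and the lack of transfection cannot be told apart there. All 4 cultures grew in 25 mM glucose and 10% serum, and all 4 come from a single cell line.

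VEGF-A binds the receptor tyrosine kinases VEGFR1 (encoded by Flt1) and VEGFR2 (encoded by Kdr), and VEGFR2 carries most of its signal for endothelial growth. VEGF-B and placental growth factor (PlGF, encoded by Pgf) bind VEGFR1, which also acts as a decoy for VEGF-A, while VEGF-C acts mainly through VEGFR3 on lymphatic vessels. Neuropilins 1 and 2 are coreceptors shared by VEGFs and class 3 semaphorins, which is why a semaphorin gene stands in the group, and angiopoietin 1 activates the Tie2 receptor and stabilises vessels. Growing fat depends on new vessels, and fat cells and their precursors secrete several of these ligands.

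The targeted genes were low where the labels say so: the signal of Kdm1a was 19.5% of control in the aof2 siRNA array, and that of Rfk was 27.0% of control in the rfk siRNA array. Preadipocyte and fibroblast markers were bright (7 of 8 reached a mean signal of 50.9, the median over probe sets), whereas endothelial markers were dim. Of 10 endothelial markers 1 reached that signal on average (Egfl7), their summed signal was 229 to 272 per array, and Pecam1 had signals of 1.25 to 8.82. Hybridisation controls, 18 probe sets, had log2 differences of -0.26 to 0.21. There was no replicate of any culture, so every value is a single measurement, no error across cultures exists, and a lower level in the whole culture could mean fewer expressing cells or less RNA per cell, which cannot be told apart.

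Sema3c was higher than in the control array in each of the 3 treated arrays, Kdr was higher from a dim control signal, Pgf was lower, and the other 7 genes differed from control by at most 1.33-fold in the probe set that represents them. The values are MAS5 signals, linear intensities per probe set, and a difference is the log2 of a treated over the control signal. Each gene is given by its brightest probe set, judged by the mean log2 signal of the arrays. It was compared if this mean was at or above the median over probe sets, a signal of 50.9, as it was for all 10 genes and for 10788 of the 18194. At least 2-fold from control was 1 of the 10 genes with aof2 siRNA (Sema3c), against 2.15% of all genes compared. With rfk siRNA it was 3 of 10 (Sema3c, Kdr and Pgf), against 1.73%, and with tranylcypromine the same 3 of 10, against 3.18%. Kdr in the control array, and Pgf with rfk siRNA and tranylcypromine, had signals under the filter. Each of these genes was compared only because of its higher arrays. At 1.5-fold the same 3 genes passed in each array, against 9.14%, 7.72% and 12.3% of all genes. The median log2 difference of the 10 genes was -0.04 with aof2 siRNA, 0.07 with rfk siRNA and -0.14 with tranylcypromine, beside -0.004, -0.01 and -0.02 over all genes compared, of which 49.3%, 48.5% and 48.03% lay above control. These comparisons share the control array. It was the lowest of the 4 arrays for 2 of the 10 genes (Kdr and Sema3c), beside 22.9% of all genes compared. It was the highest for 2 of the 10 (Vegfb and Pgf), beside 25.2%. When each treated array was instead set against the average of the other 3, 0 of the 10 genes were at least 2-fold away in any treated array. With that reference 0.686%, 1.35% and 1.71% of all genes compared were 2-fold away with aof2 siRNA, rfk siRNA and tranylcypromine. Between the treated arrays, too, 0 of the 10 were 2-fold apart, while 1.64% of all genes were between tranylcypromine and aof2 siRNA, 2.17% between rfk siRNA and aof2 siRNA, and 3.63% between tranylcypromine and rfk siRNA.

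**Figure D1:**
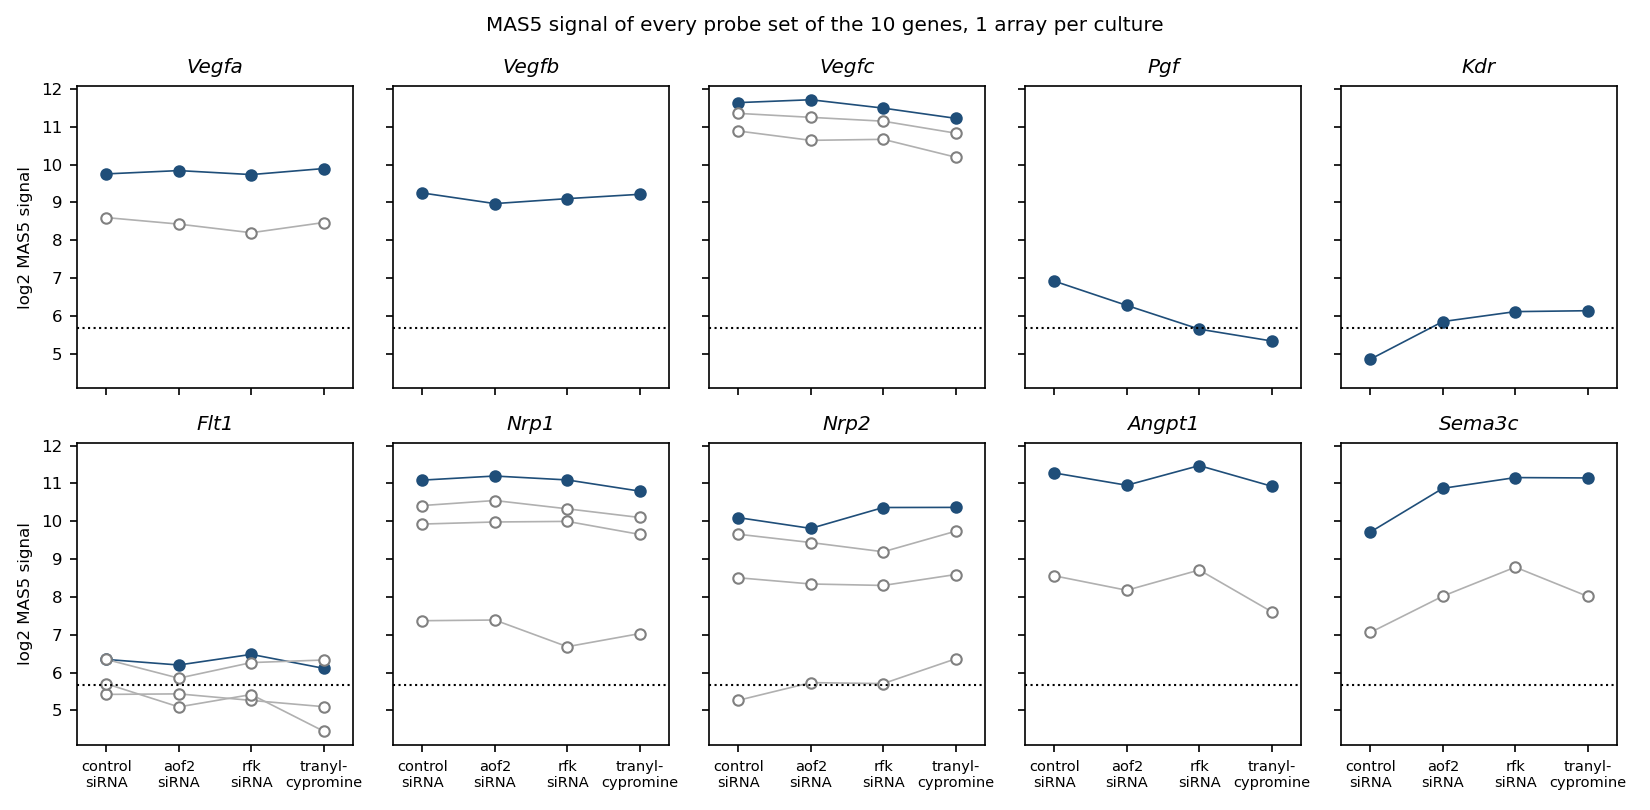
MAS5 signals (vertical axis, log2) of all 24 probe sets of the 10 genes on the 4 arrays (horizontal axis, 1 array per culture). Filled points are the probe set that represents the gene, open points the others, grey or blue lines join the values of a probe set and imply no order of the cultures, and the dotted line is the filter at a signal of 50.9. Sema3c stands lowest in the control array in both of its probe sets, Pgf lies at the dotted line with rfk siRNA, and Kdr starts below it.

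Sema3c encodes semaphorin 3C, a secreted guidance protein that signals through neuropilins and plexins. Its brighter probe set had signals of 840.0 with control siRNA, 1873 with aof2 siRNA, 2280.2 with rfk siRNA and 2265 with tranylcypromine. All 3 treated arrays were thus well above the control, at 2.23-fold, 2.71-fold and 2.70-fold, and those with rfk siRNA and tranylcypromine were nearly equal. The dimmer probe set gave 133, 259.5, 442 and 259, or 1.94-fold, 3.31-fold and 1.94-fold. Both probe sets place the control lowest and rfk siRNA highest, but they order aof2 siRNA and tranylcypromine differently, and the dimmer probe set stays just under 2-fold in these arrays. Of the 10788 genes compared, 109 had a higher log2 difference than Sema3c with aof2 siRNA, 28 with rfk siRNA and 82 with tranylcypromine. Set against the average of the other 3 arrays, the log2 differences of Sema3c came to 0.20, 0.58 and 0.57, since that reference contains the other treated arrays. Markers of the fat cell and fibroblast states went both ways in these arrays. Of 8 early adipogenic genes 7 were on the array, with summed signals of 23022 to 26730 per array. Most of this was Cebpb, with signals of 15205 to 16241. The filter was reached by 6 of the genes. Of these 6, 3, 4 and 1 lay above control, beside 49.3%, 48.5% and 48.03% of all genes compared. The fatty acid binding protein gene Fabp4 was the lowest of the 6, with log2 differences of -0.92, -1.64 and -1.17. The transcription factor gene Pparg had -0.12, -0.77 and -0.44, while Cebpa, also a transcription factor gene, had 0.56, 0.03 and 0.28. The 8 preadipocyte and fibroblast genes had summed signals of 60431 to 67076, and 7 of them reached the filter. Of these 7, 3, 3 and 4 lay above control, beside the same shares of all genes. The type I collagen gene Col1a1 was lowest at -0.55, -1.01 and -0.98, whereas Pdgfra had 0.46, 0.26 and 0.21 and Dlk1, a preadipocyte factor gene, 0.32, 0.40 and 0.18. Their part in the result was not tested. The promoter window of Sema3c is shown because both probe sets of this gene put every treated array above control; it runs from 250 bases before to 50 after the RefSeq start site on the plus strand of GRCm38.p6, at chr5:17574566-17574865. Capitals mark the core of the hypoxia response element, ACGTG as such and GCGTG here on the opposite strand, where it reads CACGC.
Sema3c promoter: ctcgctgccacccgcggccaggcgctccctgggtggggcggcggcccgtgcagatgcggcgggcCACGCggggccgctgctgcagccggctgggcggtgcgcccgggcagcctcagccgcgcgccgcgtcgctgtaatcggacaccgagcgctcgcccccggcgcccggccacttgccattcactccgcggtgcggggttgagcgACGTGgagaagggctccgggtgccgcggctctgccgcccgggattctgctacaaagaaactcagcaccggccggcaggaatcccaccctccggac

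Pgf, the gene of the VEGFR1 ligand PlGF, had the widest range of signals of the 10 genes by their representing probe sets (1.58 on the log2 scale), while the dimmer probe set of Sema3c ranged over 1.73. Its only probe set had signals of 121 with control siRNA, 77.6 with aof2 siRNA, 50.3 with rfk siRNA and 40.4 with tranylcypromine. The control array was the highest, and the signals with rfk siRNA and tranylcypromine lay under the filter of 50.9. They were 64.1%, 41.5% and 33.4% of control, or log2 differences of -0.64, -1.27 and -1.58. Of all genes compared, 236, 30 and 14 had a lower log2 difference in the same arrays. The signal is dim, and with an offset of 50 before the log these differences shrank to -0.42, -0.77 and -0.92, so the 2-fold call ended in both arrays. Set against the average of the other 3 arrays, Pgf with aof2 siRNA turned to 0.31. RefSeq lists a pair of start sites for Pgf, both on the minus strand of GRCm38.p6, at chr12:85177264-85177563 and chr12:85175933-85176232. The first holds GCGTG on the opposite strand (capitals), the other has neither core.
Pgf promoter, upstream: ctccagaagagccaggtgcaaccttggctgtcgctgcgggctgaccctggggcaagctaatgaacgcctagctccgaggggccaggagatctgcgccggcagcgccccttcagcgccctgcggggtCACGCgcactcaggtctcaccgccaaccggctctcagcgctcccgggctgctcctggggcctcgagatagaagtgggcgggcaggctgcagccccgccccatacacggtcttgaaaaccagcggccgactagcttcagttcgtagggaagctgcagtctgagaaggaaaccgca
Pgf promoter, downstream: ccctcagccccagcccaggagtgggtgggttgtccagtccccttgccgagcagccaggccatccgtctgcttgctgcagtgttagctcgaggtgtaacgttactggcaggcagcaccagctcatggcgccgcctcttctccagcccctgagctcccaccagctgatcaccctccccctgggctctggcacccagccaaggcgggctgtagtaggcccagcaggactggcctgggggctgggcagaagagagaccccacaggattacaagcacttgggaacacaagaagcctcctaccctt

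By the Euclidean distance between log2 signals centred on each gene's mean over the 4 arrays, the genes most like Pgf among 10778 others were Sash3 (0.09), Sfxn4 (0.24) and Zfp689 (0.26). Sash3, an adaptor protein gene of lymphocytes, had signals of 116, 80.5, 51.0 and 42.1 in the same order of arrays. Sfxn4, a mitochondrial sideroflexin gene, was brighter with 390.2, 266, 185 and 162. Zfp689, a zinc finger gene, went from 152 to 88.5, 71.8 and 56.8, but its 2 other probe sets had log2 differences of 0.13 to 0.92, above control in each treated array. With 4 arrays many genes can share a pattern, and this likeness is a description.

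Kdr, the gene of VEGFR2, was higher in each treated array but dim throughout. Its only probe set had signals of 29.0 with control siRNA, 57.7 with aof2 siRNA, 69.3 with rfk siRNA and 70.5 with tranylcypromine. The control stands apart below the filter and the 3 treated arrays just above it, so that Kdr was compared only because of the treated arrays. The ratios were 1.99, 2.39 and 2.43, log2 differences of 0.996, 1.26 and 1.28. With an offset of 50 before the log they were 0.45, 0.60 and 0.61, below the 2-fold line in each array. Of the 10 endothelial markers on the list, 9 of which were below the filter, 5 lay above control with aof2 siRNA, 3 with rfk siRNA and 6 with tranylcypromine. Over all genes compared, which leave out these 9 dim markers, 49.3%, 48.5% and 48.03% lay above control. Above control in every treated array were Pecam1, with signals of 1.25, 7.01, 7.48 and 8.82 on the arrays in the order just given, Emcn with 3.76, 30.8, 12.8 and 20.9, and Tie1 with 1.83, 10.5, 2.53 and 2.67. Below it in every treated array were Esam (39.3, 5.58, 27.9 and 7.43), Cldn5 (60.6, 37.7, 56.3 and 46.2) and Robo4 (39.0, 23.5, 20.3 and 35.0). The summed signal of all 10 markers was 272 in the control array and 253, 229 and 253 in the treated ones, and Egfl7, at 86.4 to 103.8, made up the largest part of it. These are signals of its brightest probe set. The 4 probe sets of Egfl7 reaching the filter had log2 differences of -0.42 to 0.50 with aof2 siRNA, -0.64 to 1.59 with rfk siRNA and 0.04 to 1.66 with tranylcypromine. The part of endothelial transcripts in the Kdr signal was not tested. The Kdr window on the minus strand of GRCm38.p6, at chr5:75978406-75978705, holds GCGTG at 2 places on the strand of the gene (capitals).
Kdr promoter: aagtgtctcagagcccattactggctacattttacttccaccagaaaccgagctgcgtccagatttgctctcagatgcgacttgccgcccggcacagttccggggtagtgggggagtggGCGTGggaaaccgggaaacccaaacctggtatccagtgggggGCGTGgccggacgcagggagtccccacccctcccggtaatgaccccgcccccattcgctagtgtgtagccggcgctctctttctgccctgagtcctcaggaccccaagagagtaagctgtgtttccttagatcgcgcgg

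Over the members, RefSeq promoter windows were found for 9 of the 10 genes, 11 windows in all. ACGTG or GCGTG, searched on both strands, occurred in 8 of the 11, and in 43.8% of the 32851 windows of the same 300 bases in the table (19.6% hold ACGTG and 32.4% GCGTG). The E-box CACGTG, which contains ACGTG, occurred in 0 of the 11 and in 7.15% of all windows. The members' windows were rich in G and C, at 59.3% to 75.7% against a median of 52.7%, and both cores contain a CpG. The windows of Sema3c, Kdr, Nrp2 and Vegfb, and 1 of the 2 windows of Vegfa, hold 2 such cores each. A match is a description of letters, not a binding site.

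Of the 3 VEGF genes other than Pgf, Vegfa and Vegfb stayed near control in the probe set that represents them. Vegfa, the main angiogenic ligand, had signals of 864 with control siRNA, 918 with aof2 siRNA, 853 with rfk siRNA and 953 with tranylcypromine, the order used from here on. Its highest and lowest arrays differed only 1.12-fold, and the range of its signals was smaller than that of 90.2% of the genes compared. Its other probe set gave 388, 344, 294 and 354, log2 differences of -0.17, -0.40 and -0.13, so the probe sets have opposite signs with aof2 siRNA and tranylcypromine. Vegfb, whose product binds VEGFR1, had 609, 501, 549 and 594, highest in the control array, with log2 differences of -0.28, -0.15 and -0.04. Such sizes are common within a gene: over 5228 genes with several probe sets reaching the filter, their log2 differences ranged over a median of 0.31 (aof2 siRNA), 0.29 (rfk siRNA) and 0.34 (tranylcypromine).

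Vegfc, the lymphangiogenic ligand gene, was lowest with tranylcypromine in all 3 of its probe sets. The brightest had signals of 3189, 3361, 2883 and 2391, the next 2618, 2435, 2269 and 1822, and the dimmest 1896, 1598, 1628 and 1173. With tranylcypromine these were 1.33-fold, 1.44-fold and 1.62-fold lower than control, log2 differences of -0.42, -0.52 and -0.69. With aof2 siRNA the log2 differences were 0.08, -0.10 and -0.25, and with rfk siRNA -0.15, -0.21 and -0.22. Between tranylcypromine and aof2 siRNA, a contrast without the control array, the 3 probe sets gave -0.49 to -0.42. Vegfd, the closest relative of Vegfc, was the lowest of the other VEGF and semaphorin ligands with tranylcypromine, at -0.56 (its probe sets -0.59 to -0.29), and stood at 0.01 with aof2 siRNA and -0.36 with rfk siRNA. None of these reached 2-fold.

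Flt1, the gene of VEGFR1, had 4 dim probe sets, of which 2 reached the filter. The representing one had signals of 81.5, 73.6, 89.4 and 69.2 and the next 81.5, 57.8, 76.9 and 80.6. These probe sets order the treated arrays differently. The log2 differences with aof2 siRNA were -0.15 and -0.49 and with tranylcypromine -0.24 and -0.01. Below the filter, the dimmest probe set went from 52.2 to 21.8 with tranylcypromine, a log2 difference of -1.26, and the remaining one from 42.9 to 34.3. No direction can be read for Flt1 at these signals.

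The neuropilin genes were bright and differed little. Nrp1 had signals of 2177, 2346, 2184 and 1779. All 4 of its probe sets were below control with tranylcypromine, by log2 differences of -0.34 to -0.27, and slightly above it with aof2 siRNA, by 0.02 to 0.13. With rfk siRNA 2 were above and 2 below, at -0.69 to 0.07. Nrp2 had signals of 1095, 899, 1318 and 1321, lowest with aof2 siRNA, and log2 differences of -0.29, 0.27 and 0.27. With tranylcypromine all 4 of its probe sets were above control, by 0.08 to 1.10, the largest being the dimmest, with signals of 38.5 and 82.5. The control signal of this dimmest probe set lay under the filter, which it reached only because of the treated arrays. With rfk siRNA its probe sets ran from -0.46 to 0.44 and had no common sign. Between tranylcypromine and aof2 siRNA the 4 probe sets of Nrp1 gave -0.45 to -0.33 and the 4 of Nrp2 gave 0.25 to 0.63. The highest of these values came from the dimmest Nrp2 probe set. The coreceptors thus differed in opposite directions between these arrays, by less than 2-fold.

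Angpt1, the gene of the Tie2 ligand angiopoietin 1, was lower with aof2 siRNA and tranylcypromine and slightly higher with rfk siRNA in both of its probe sets. The brighter had signals of 2482, 1982, 2840.1 and 1945, the dimmer 377, 289, 419.7 and 195. The log2 differences were -0.32 and -0.38 with aof2 siRNA, 0.19 and 0.15 with rfk siRNA, and -0.35 and -0.95 with tranylcypromine. The siRNA arrays lay 0.52 and 0.54 apart on the log2 scale, rfk siRNA being the higher, in the brighter and the dimmer probe set. Tranylcypromine minus rfk siRNA was -1.11 in the dimmer probe set and -0.55 in the brighter. Tek, which encodes the receptor Tie2, had signals of 13.2 or less on all 4 arrays.

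**Figure D2:**
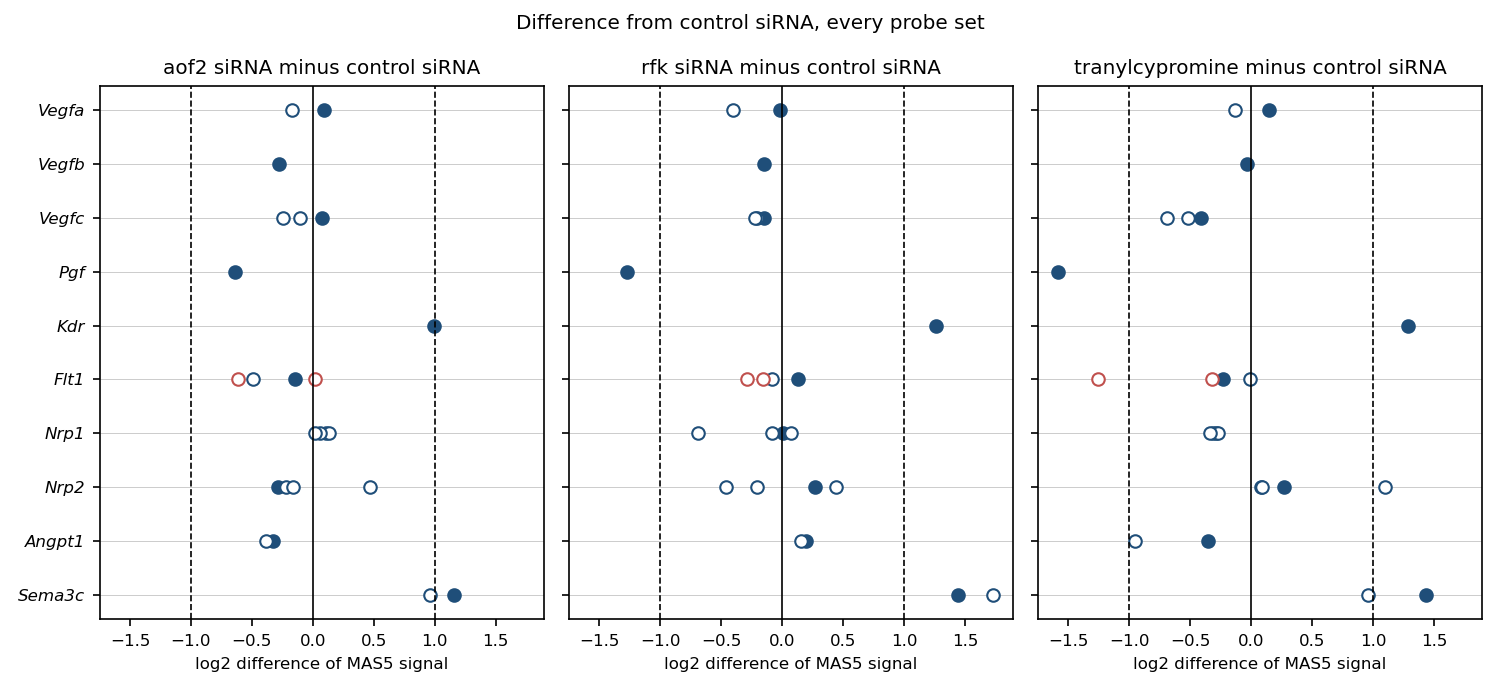
Log2 difference of MAS5 signal from control siRNA (horizontal axis) for every probe set of each gene (vertical axis), in 1 panel per treated array. Filled points represent the gene, open blue points are its other probe sets reaching the filter, open red points those below it, and dashed lines mark 2-fold. Both probe sets of Sema3c lie at 0.95 or higher in every panel, all 3 of Vegfc lie between -0.69 and -0.42 with tranylcypromine, and those of Flt1 and Nrp2 scatter.

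**Figure D3:**
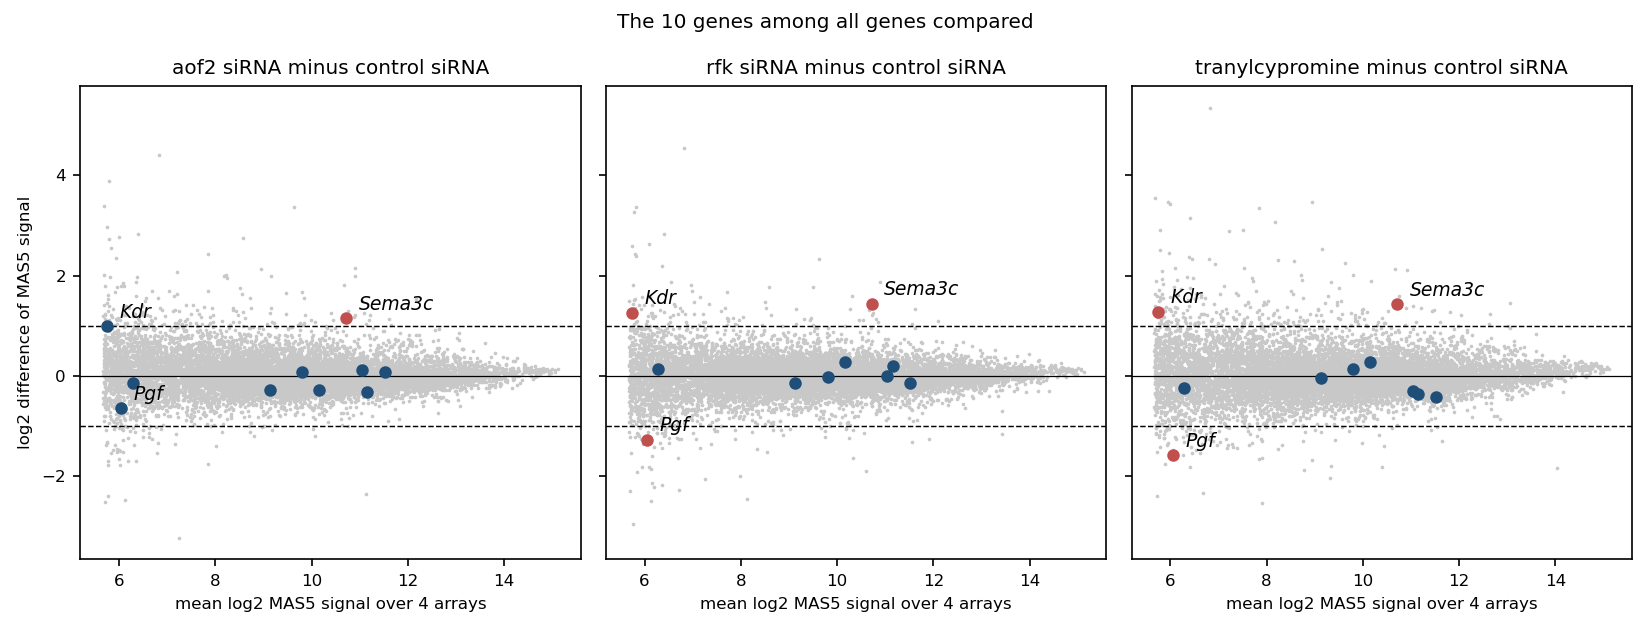
Log2 difference from control siRNA (vertical axis) against mean log2 signal over the 4 arrays (horizontal axis) for the 10788 genes compared (grey), with the 10 genes as large points, red where they are at least 2-fold from control. Sema3c lies outside the bulk of equally bright genes in all 3 panels, whereas Kdr and Pgf lie at the dim end, where many genes scatter past the dashed 2-fold lines.

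Other genes of the pathway were taken from lists. Among 7 ligand genes of the VEGF, angiopoietin, apelin and semaphorin families that reached the filter (of 12 listed), 0 were 2-fold away with aof2 siRNA or tranylcypromine and 1 was 2-fold lower with rfk siRNA. Over all genes compared 2.15% and 3.18% were 2-fold away with aof2 siRNA and tranylcypromine, and 0.806% were 2-fold lower with rfk siRNA. The medians of the 7 ligand genes were -0.20, -0.16 and -0.08 on the log2 scale. With aof2 siRNA Sema3f (0.99) and Sema3a (0.45), which encode further neuropilin ligands, were the highest, and Angpt4 (-0.67) and Angptl4 (-0.32) the lowest. With rfk siRNA Sema3a (0.69) and Apln (-0.04) were the highest, and Angpt4 (-1.14) and Angpt2 (-0.76), an antagonist of angiopoietin 1, the lowest. Angpt4 was dim, with signals of 117 in the control and 52.8 in the rfk siRNA array, and its difference was -0.70 with the offset of 50, which ends the call. With tranylcypromine Sema3f (0.72) and Sema3a (0.22, its 3 probe sets spanning -2.54 to 0.22) again stood highest, and Vegfd (-0.56) and Angptl4 (-0.35) lowest.

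Of 7 receptor and coreceptor genes reaching the filter (of 11 listed), Plxna4 was 2-fold lower with aof2 siRNA and Plxnb1 2-fold higher with rfk siRNA and tranylcypromine. Over all genes compared 0.538% were 2-fold lower with aof2 siRNA, and 0.927% and 2.23% were 2-fold higher with rfk siRNA and tranylcypromine. With an offset of 50 before the log the calls of these plexin genes ended, at -0.93 for Plxna4 and at 0.73 and 0.76 for Plxnb1. Plexins carry the signal of semaphorins across the membrane. Plxnb1 had signals of 71.8, 109, 152 and 156, lowest in the control array, and log2 differences of 0.60, 1.08 and 1.12. Plxna4 had signals of 110.1, 33.9, 58.6 and 126, with differences of -1.70, -0.91 and 0.20. Plxna2 stood at 0.75, 0.17 and 0.72 and its 4 probe sets spanned 0.75 to 1.38 with aof2 siRNA, -0.05 to 1.01 with rfk siRNA and 0.22 to 1.22 with tranylcypromine. The bright Plxnd1, a receptor for semaphorin 3C with neuropilins, had signals of 2399, 2907, 1965 and 2274, differences of 0.28, -0.29 and -0.08. The other low members were Plxnb2 with aof2 siRNA (-0.05), and Plxna1 with rfk siRNA (-0.31) and tranylcypromine (-0.06). The receptor gene Flt4, for VEGFR3, was under the filter with signals of 22.9 to 56.2.

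Of 9 genes listed as angiogenesis inhibitors and matrix regulators that reached the filter (of 14 listed), 7, 8 and 5 were above control with aof2 siRNA, rfk siRNA and tranylcypromine, with medians of 0.19, 0.38 and 0.52. The list counts Vash2, whose role as an inhibitor is not settled, and the rfk siRNA median is its value. Over all genes compared 49.3%, 48.5% and 48.03% were above control, so the count with tranylcypromine is near the background. At least 2-fold higher were 1, 2 and 1, beside 1.61%, 0.927% and 2.23% of all genes. Timp3, which encodes a metalloprotease inhibitor that also blocks VEGF binding to VEGFR2, had signals of 795, 1715, 1732 and 1640.4, lowest in the control array, or 1.11, 1.12 and 1.04 on the log2 scale. Its 4 probe sets spanned -0.24 to 1.11, then 0.17 to 1.12, then 0.15 to 1.04, and their mean gave 0.47, 0.74 and 0.52, which ends the 2-fold call in each array. Thbs1, the gene of the inhibitor thrombospondin 1, gave 0.76, 1.24 and 0.66 from a control signal of 93.1, and its 2 probe sets ranged from -0.09 to 0.76, 0.72 to 1.24 and -0.14 to 0.66. Its call with rfk siRNA ended with the offset of 50 (0.91). The lowest were Thbs2 (-0.12) and Serpinf1 (-0.07) with aof2 siRNA, the same genes at -0.05 and 0.01 with rfk siRNA, and Adamts1 (-0.47) and Vash2 (-0.18) with tranylcypromine, where Col18a1, the source of endostatin, was second highest at 0.79. Set against the average of the other 3 arrays, the tranylcypromine median was -0.01.

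Among 16 other growth factor and receptor genes reaching the filter (of 22 listed), Ang, the gene of the ribonuclease angiogenin, was at least 2-fold from control with aof2 siRNA and tranylcypromine, and no other gene of the list reached 2-fold in any array. Over all genes compared 2.15%, 1.73% and 3.18% were at least 2-fold from control with aof2 siRNA, rfk siRNA and tranylcypromine. Ang belongs to a family of near-identical genes that a probe set may not separate. Its signals were 32.5, 75.1, 60.5 and 72.9, dim and lowest in the control array, with log2 differences of 1.21, 0.90 and 1.17. The control signal lay under the filter, so that Ang, like Kdr, was compared only because of the treated arrays, and with the offset of 50 it stood at 0.60 with aof2 siRNA and 0.58 with tranylcypromine, which ends both calls. The list had 11, 13 and 10 of 16 genes above control, beside 49.3%, 48.5% and 48.03% of all genes, and medians of 0.28, 0.18 and 0.27. Jag1 (0.66) with aof2 siRNA, Fgfr1 (0.65) with rfk siRNA and the receptor gene Met (0.89) with tranylcypromine were next highest. The lowest were Hgf (-0.36) and Fgf7 (-0.28) with aof2 siRNA, Pdgfrb (-0.37) and Fgf7 (-0.15) with rfk siRNA, and Hgf (-0.53), the ligand gene of Met, and Pdgfrb (-0.30, its probe sets spanning -0.30 to 0.37) with tranylcypromine.

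Vegfa is a classical target of hypoxia-inducible factor (HIF), and 14 further HIF targets reached the filter (of 16 listed). Above control were 2, 2 and 5 of the 14, beside 49.3%, 48.5% and 48.03% of all genes, with medians of -0.44, -0.34 and -0.24, beside Vegfa at 0.09, -0.02 and 0.14 in its brighter and -0.17, -0.40 and -0.13 in its other probe set. At least 2-fold lower were 1, 0 and 2 of them, against 0.538%, 0.806% and 0.945% of all genes. Ankrd37, an ankyrin repeat gene, stood at -1.15, -0.40 and -1.44 with signals of 244, 109.7, 184 and 89.9, and at -0.88 with aof2 siRNA with the offset of 50, which ends that call. P4ha1, a collagen prolyl hydroxylase subunit gene, was second lowest with aof2 siRNA (-0.97), Bnip3 (-0.62) and the glucose transporter gene Slc2a1 (-0.53) were lowest with rfk siRNA, and Pfkfb3 (-1.57), a regulator of glycolysis, was lowest with tranylcypromine. This value for Pfkfb3 was -0.89 with the offset and -0.25 as the mean of its probe sets, under 2-fold in both. Ndrg1 (0.82, 0.24 and 0.35) was the highest or second highest in each array, next to Ddit4 (0.26) with aof2 siRNA, Pfkfb3 (0.14) with rfk siRNA and Adm (0.40) with tranylcypromine. The probe sets of Ndrg1 spanned -0.33 to 2.32 with rfk siRNA and -0.17 to 2.66 with tranylcypromine. Set against the average of the other 3 arrays, the medians were -0.24, -0.14 and 0.03, so the tranylcypromine median changes sign.

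The genes of HIF subunits and their control (9 of 10 reaching the filter) and of VEGF receptor signalling (14 of 17 listed) held 0 genes at least 2-fold from control in any array. The shares over all genes compared were 2.15%, 1.73% and 3.18% with aof2 siRNA, rfk siRNA and tranylcypromine. Hif1a had signals of 11519, 10205, 10906 and 11504. Epas1, which encodes HIF-2 alpha, was highest with both siRNAs (0.58 and 0.62), followed by Hif3a (0.51) and Egln2 (0.08), and with tranylcypromine Egln3 (0.41) and Hif3a (0.27) were highest. The other probe set of Hif3a reaching the filter had the opposite sign in both arrays, at -0.56 with aof2 siRNA and -0.39 with tranylcypromine. The lowest were Hif1an (-0.63), an asparagine hydroxylase that restrains HIF, and Egln1 (-0.36) with aof2 siRNA, Vhl (-0.39) and Hif1an (-0.35) with rfk siRNA, and Hif1an (-0.33) and Egln1 (-0.15) with tranylcypromine. In the signalling list, with medians of 0.01, -0.04 and 0.12, the VEGFR2 adaptor gene Shb stood at 0.76, -0.004 and 0.87. Next to it were Nos3 (0.61) with aof2 siRNA and Shc1 (0.54) with tranylcypromine, and Src (0.33) and Nck1 (0.26) were highest with rfk siRNA. The lowest were Grb2 (-0.36) and Ptpn11 (-0.16), Plcg1 (-0.43) and Nos3 (-0.37), and Grb2 (-0.22) and Pik3ca (-0.04), in the same order of arrays. Of these, Grb2 had probe sets of both signs in each array (-0.36 to 0.36, -0.31 to 0.39 and -0.22 to 0.39), as had Shc1 (-0.25 to 0.54) and Pik3ca (-1.14 to 0.46) with tranylcypromine, Nck1 (lowest at -0.15) with rfk siRNA and, in the preceding list, Hif1an (-0.35 to 0.15) with rfk siRNA.

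**Figure D4:**
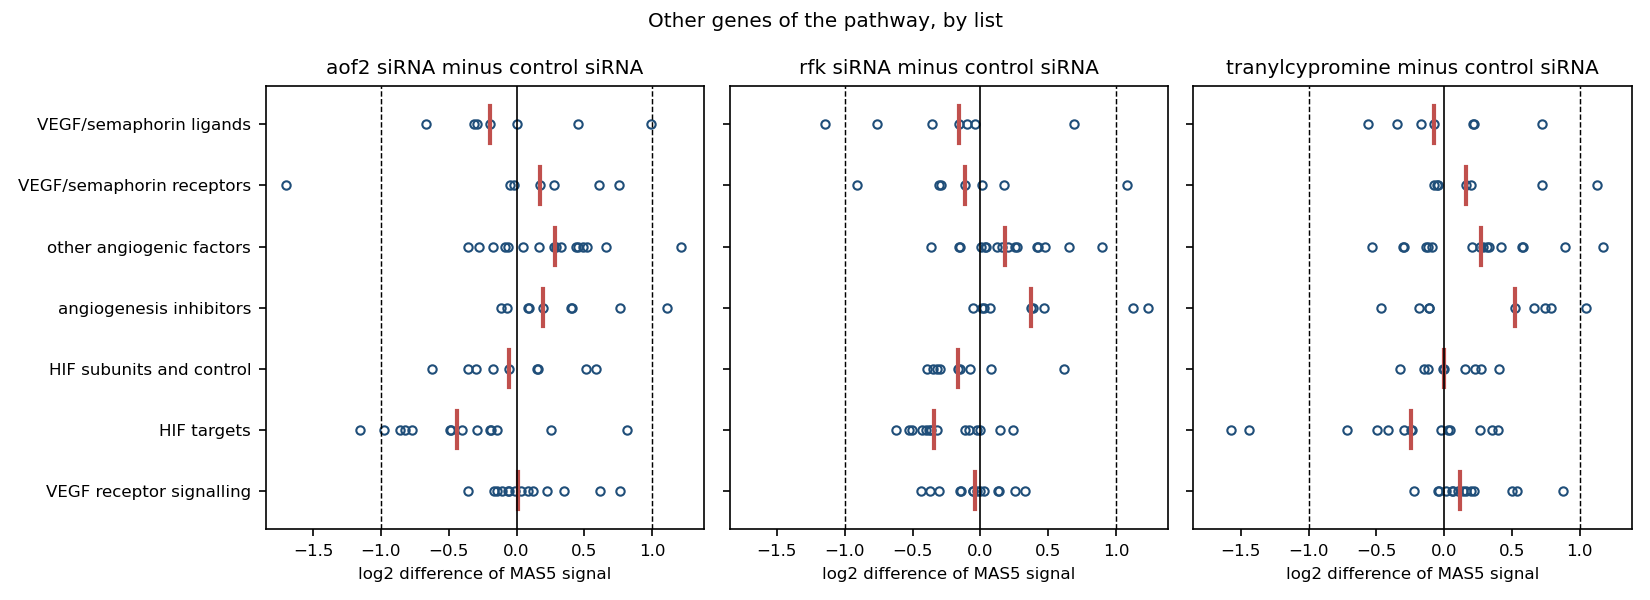
Log2 difference of MAS5 signal from control siRNA (horizontal axis) for the genes of the 7 pathway lists that reached the filter (vertical axis, 1 row per list, 1 open point per gene), in 1 panel per treated array, with red bars at each list's median and dashed lines at 2-fold. HIF stands for hypoxia-inducible factor. The HIF target medians lie at -0.44, -0.34 and -0.24 and those of the list of angiogenesis inhibitors and matrix regulators at 0.19, 0.38 and 0.52.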

How the data were processed

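The deposited table holds 1 intensity per probe set for each of the 4 arrays. The authors computed these linear intensities with MAS5, per the submitters' processing notes, from biotin-labelled cRNA made from 250 ng of total RNA, per the labels' protocols. The MAS5 version, its scaling target and detection calls were not given in the sources used here. Trimmed of 2% at either end, the mean intensity came to 500.003 for every array, so the deposited intensities had been scaled. Median signals were 53.3 to 56.2.

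Log2 signals were used, without an offset. Names came from the platform annotation (34958 probe sets with 1 symbol, 932 with several, which named no gene), checked by gene identifier against RefSeq's GRCm38.p6 table, where 34754 matched. Promoter windows are RefSeq's of the same build. A gene was called at 2-fold or more. With 1 array per group no test was possible, and the number of arrays limits the precision.

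The genes and lists were chosen with earlier results of these data known. Named are the 10 genes, both targets, the 2 top and 2 bottom members per comparison of each list, and the 3 genes most like the member of widest range; any other gene was picked after seeing its values. The 9 alternatives changed the scaling (median centring, quantile normalization), the offset, the filter (none, or the 75th percentile of probe sets), the probe sets (their mean, or those specific to a transcript), the reference and the threshold (1.5-fold). The steps were tested on simulated data. Python 3.11.15, NumPy 2.4.6, pandas 2.3.3 and matplotlib 3.10.9 were used.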

Additional observations from a re-analysis of the deposited data

How the results depend on the processing

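The number of genes at least 2-fold from control was 1, 3 and 3 of 10 for aof2 siRNA, rfk siRNA and tranylcypromine, and it was the same with median centring, quantile normalization, the mean of all probe sets and without probe sets that match several transcripts (9 of the 10 genes, since Vegfb has no other). It was also the same with no filter, where the share of all genes at 2-fold rose to 19.3%, 19.3% and 20.8%, so that 1 of 10 and 3 of 10 are near that background. Part of this sameness was fixed in advance. All 10 genes already reached the filter, and Kdr and Pgf have a single probe set each, which is also its own mean. The representing probe sets of Sema3c, Kdr and Pgf stay when those that match several transcripts are dropped. The stricter filter kept 7 genes and left 1 (Sema3c) in each array, beside 0.655%, 0.582% and 1.28% of all genes. The offset of 50 left 1 (Sema3c) in each, beside 0.778%, 0.657% and 1.4% of all genes. Set against the average of the other 3 arrays, the number was 0 in each treated array, beside 0.686%, 1.35% and 1.71% of all genes. At 1.5-fold it was 3 in each array, beside 9.14%, 7.72% and 12.3% of all genes. Over the settings that keep the control as reference, the log2 difference of Sema3c was 1.06 to 1.17, 1.39 to 1.58 and 1.19 to 1.44. Of 228 recomputed differences of the 10 genes, 214 moved by less than the typical range between probe sets of a gene, 14 moved by more, and 0 that were 2-fold changed sign. The 214 include values that could not move, since a change of filter leaves the difference of a gene as it was. Among smaller differences the sign did change between settings for Vegfa, Vegfc and Pgf with aof2 siRNA, Flt1 and Nrp1 with rfk siRNA, and Vegfb with tranylcypromine. Of 13 calls at 2-fold in the pathway lists, 12 held with median centring, 3 with the offset, 3 of the 10 with a value for the mean of all probe sets, and 2 against the average of the other 3 arrays (Plxna4 with aof2 siRNA and Pfkfb3 with tranylcypromine). Dim signals limit Kdr, Pgf and Flt1. No paired analysis was possible because each group has 1 array.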
